A study of Saccharomyces cerevisiae with 24 samples.

Results

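This comparison set cells with ire1ΔLD against cells with Ire1 in budding yeast whose labels give a deletion of OPI3 and growth with choline. It used 6 of the series' 24 one-colour arrays, all those titled Δire1Δopi3+ire1ΔLD+choline (3 arrays) and Δire1Δopi3+IRE1+choline (3 arrays), and described all 6209 genes that passed the filter on dim signals. Both groups were W303 cells of mating type a that carried deletions of IRE1 and of OPI3 by their labels, and both received 1 mM choline overnight. They differed in the Ire1 form that was put back, which was IRE1 in one group (IRE1 cells here) and ire1ΔLD in the other (ΔLD cells here). Cultures were grown at 30 °C in a selective synthetic complete medium and collected below an OD600 of 0.5. Other groups of the series, each with the same 2 Ire1 forms in Δire1 cells, are given beside them. Untreated cells and cells treated with DTT (2 mM for 1 hour) carried no OPI3 deletion by their labels and received no choline. Cells labelled Δopi3 without choline received neither DTT nor choline. The labels give neither the promoter nor the carrier of the 2 Ire1 forms, and do not say that the replicates were separate cultures. The p-values therefore measure the spread between samples within groups, which may be technical. That spread was pooled over the groups of all 24 arrays, not taken from the 6 arrays alone.

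Ire1 is a kinase and ribonuclease of the endoplasmic reticulum (ER) membrane. Its lumenal part senses unfolded proteins, and its ribonuclease starts the splicing of HAC1 mRNA, whose product switches on genes for folding, degradation and transport in the ER (the unfolded protein response). The name ire1ΔLD marks the loss of the lumenal domain, which leaves the membrane span and the cytosolic part. Opi3 carries out later methylation steps on the way from phosphatidylethanolamine to phosphatidylcholine. Yeast without it can still make phosphatidylcholine from choline that is added to the medium. The pair of groups therefore asks how the Ire1 forms differ where the lipid defect of Δopi3 cells is supplied with choline.

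Every level is a log2 signal relative to the array's 75th percentile, and a difference is ΔLD cells minus IRE1 cells. That percentile ranged from 8616 to 15890 on the 6 arrays, from 90.8% to 91.9% of the spots were well above background, and 0 spots were saturated. Genes are called where the adjusted p was under 0.05 (limma, Benjamini-Hochberg over 6209 genes, 3 arrays a group), and the median standard error (SE) of a difference was 0.10. Each value is an average over the cells of a culture, so fewer cells of a kind and less RNA per cell cannot be told apart. The 7 a-specific genes examined, which mark the labelled mating type, were above background on all 6 arrays. Of the 4 alpha-specific genes, the pheromone genes MF(ALPHA)1 and MF(ALPHA)2 were above background on 0 arrays, and the a-factor receptor gene STE3 (levels of −6.10 to −5.39) and the agglutinin gene SAG1 (−3.24 to −2.89) were above it on all 6.

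One array went against its label. OPI3 (YJR073C) was not above background on 5 of the 6 arrays, where its level of −9.73 to −9.12 allowed at most 0.0367% to 0.0468% of the mean in untreated cells. In IRE1 cells of replicate 3, the library labelled Δopi3 with choline, OPI3 stood at 0.75, which is 11.4% of that mean. The fitted OPI3 difference of −3.29 (adjusted p 0.709) was 0.19 without that array, and the genes next to OPI3 on chromosome X, NPA3 (0.05) and MOG1 (0.09), were not called. Results that this array decides are given with and without it below.

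In all, 195 of 6209 genes were called (3.14%), 102 higher in ΔLD cells (1.64%) and 93 lower (1.5%), and 862 genes (13.9%) had an unadjusted p under 0.05. The differences were small: the median was 0.50 among the called genes that were higher and −0.51 among those that were lower, and 23 called genes passed 2-fold (8 higher, 0.129%, and 15 lower, 0.242%), or 11 with normexp background correction. The groups did not overlap for 1209 genes (19.5%), among them all 195 called genes. The called genes that were higher had dim signals, with a median level of −3.92 against −1.32 over all genes, and 66 of the 102 had a level under −2.82, the limit below which 25% of all genes lie. Those that were lower had a median level of −1.10, and 31 of 93 were under that limit. With the replicate number, which is also the slide, as a block in the model 344 genes were called (178 higher, 166 lower). Without the array that carried an OPI3 signal 105 genes were called, 103 of them among the 195. The count was 95 without ΔLD replicate 1, 99 without IRE1 replicate 2 and 109 without ΔLD replicate 3.

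**Figure D1:**
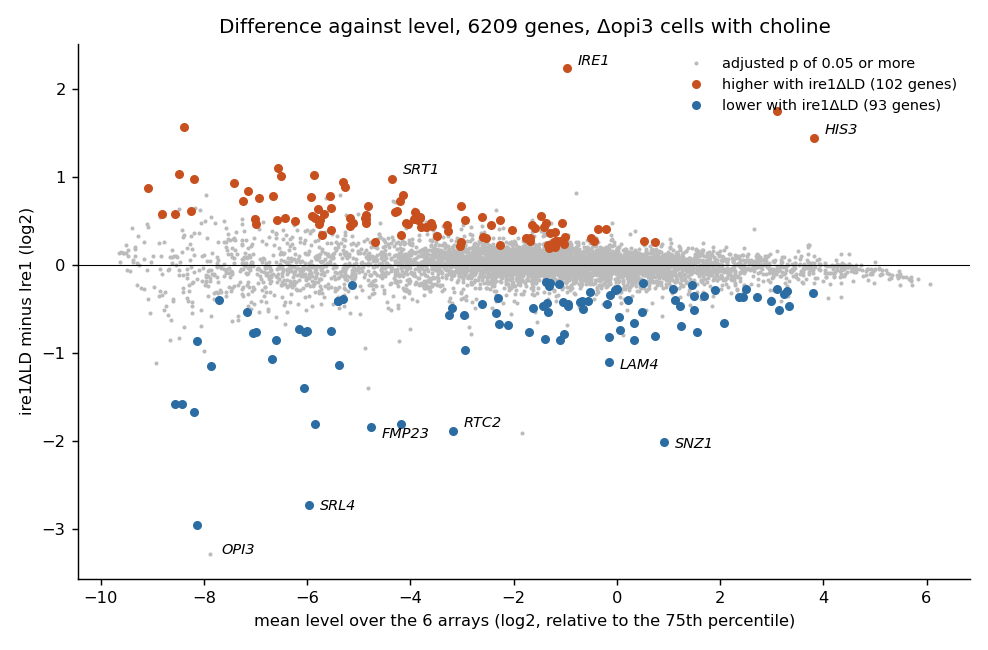
Difference (ΔLD cells minus IRE1 cells, log2) against the mean level over the 6 arrays (log2, relative to the 75th percentile) for 6209 genes, with the called genes coloured. Of the called genes, 102 lie above 0 and 93 below it, and OPI3 is the grey point at −3.29.

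IRE1 and a marker gene rose. IRE1 (YHR079C) had levels of −2.22, −2.35 and −1.66 in IRE1 cells and of 0.24, 0.01 and 0.21 in ΔLD cells. The groups did not overlap, and the difference of 2.23 (SE 0.25, adjusted p 1.12e-05) was the largest rise of the comparison. The sequence of the probe was not among the files used, so its place relative to the deleted domain was not examined. HIS3 (YOR202W), a histidine synthesis gene that is also used as a selectable marker, had levels of 2.96, 2.98 and 3.35 in IRE1 cells and of 4.35, 4.56 and 4.71 in ΔLD cells. All ΔLD arrays were above all IRE1 arrays, by 1.44 on average (SE 0.17, adjusted p 1.85e-05). YOR203W, a reading frame whose name places it between HIS3 and DED1, was higher by 1.75 (adjusted p 0.000124). The genes on either side of HIS3 on chromosome XV, MRM1 (−0.08) and DED1 (−0.07), were not called, and nor were the markers ADE2, CAN1, LEU2, TRP1 and URA3.

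Near IRE1 on chromosome VIII 1 gene fell. LAM4 (YHR080C), which encodes a sterol transfer protein of ER contact sites, had levels of 0.60, 0.39 and 0.23 in IRE1 cells and of −0.66, −0.80 and −0.65 in ΔLD cells. The groups were well apart and the difference was −1.11 (SE 0.11, adjusted p 4.86e-06). LAM4 is the second gene beyond IRE1 on that side, after SAE3, which was not analysed here, and on the other side YHR078W (0.08) and NMD2 (0.10) were not called. LAM4 was also called lower in ΔLD cells that were untreated (−1.32), treated with DTT (−0.58) and labelled Δopi3 without choline (−0.89).

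Genes of the unfolded protein response were not called between the forms in choline. HAC1 itself, the mRNA that Ire1 cuts, had levels of 1.32, 1.32 and 1.35 in IRE1 cells and of 1.02, 1.10 and 1.07 in ΔLD cells. The arrays did not overlap, but the difference of −0.27 (SE 0.12) missed the threshold (adjusted p 0.338). That SE comes from the model of all groups of the series, so spread in other groups enters the result. The standard deviation of the HAC1 levels was 0.020 in IRE1 cells and 0.044 in ΔLD cells. The files do not separate spliced from unspliced HAC1. Of 12 ER folding genes, 0 were called (3.14% of all genes were) and 6 had an unadjusted p under 0.05 (13.9% of all genes had). The median difference was −0.22 against 0.01 over all genes. Of the 12 values 11 were below 0, as were 2933 of all 6209. ERO1, the oxidase that drives disulfide formation, had levels of 1.41, 1.29 and 1.22 in IRE1 cells and of 0.74, 0.90 and 1.01 in ΔLD cells, which do not overlap. Its difference was −0.42 (SE 0.12, adjusted p 0.0608), and it was called with the replicate block (adjusted p 0.0350). The disulfide isomerase gene PDI1 differed by −0.29 (adjusted p 0.203).

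KAR2, the ER chaperone BiP, set the replicates apart. Its levels were 3.58, 3.20 and 2.72 in IRE1 cells of replicates 1, 2 and 3, and 2.80, 2.81 and 2.77 in ΔLD cells. The ΔLD arrays were nearly alike, while the IRE1 array of replicate 3, the array with the OPI3 signal, lay below all of them. The within-slide differences were −0.78, −0.39 and 0.05, and the fitted difference was −0.38 (SE 0.15, adjusted p 0.248). Without that array the difference was −0.60 and was called (adjusted p 0.0172). The share of the OPI3 signal in this shift was not tested.

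No gene of the other arms of the response was called. Of the 12 genes for ER-associated degradation and 12 for translocation into the ER, 0 were called (3.14% of all genes were). Of 14 genes for N-glycosylation and 14 for transport from the ER to the Golgi, 0 were called as well. In that order 0, 2, 1 and 1 had an unadjusted p under 0.05 (13.9% of all genes had). The medians were −0.08, −0.07, −0.10 and −0.003, with 10, 7, 13 and 7 differences below 0, as were 2933 of all 6209. With scaling to the control probes of the array the medians were 0.02, 0.03, 0.01 and 0.10, against 0.11 over all genes. ULI1 (YFR026C) had levels of −5.94, −6.24 and −6.15 in IRE1 cells and of −5.98, −6.21 and −6.04 in ΔLD cells. The groups overlapped throughout, with a difference of 0.04 (SE 0.13, adjusted p 0.968).

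**Figure D2:**
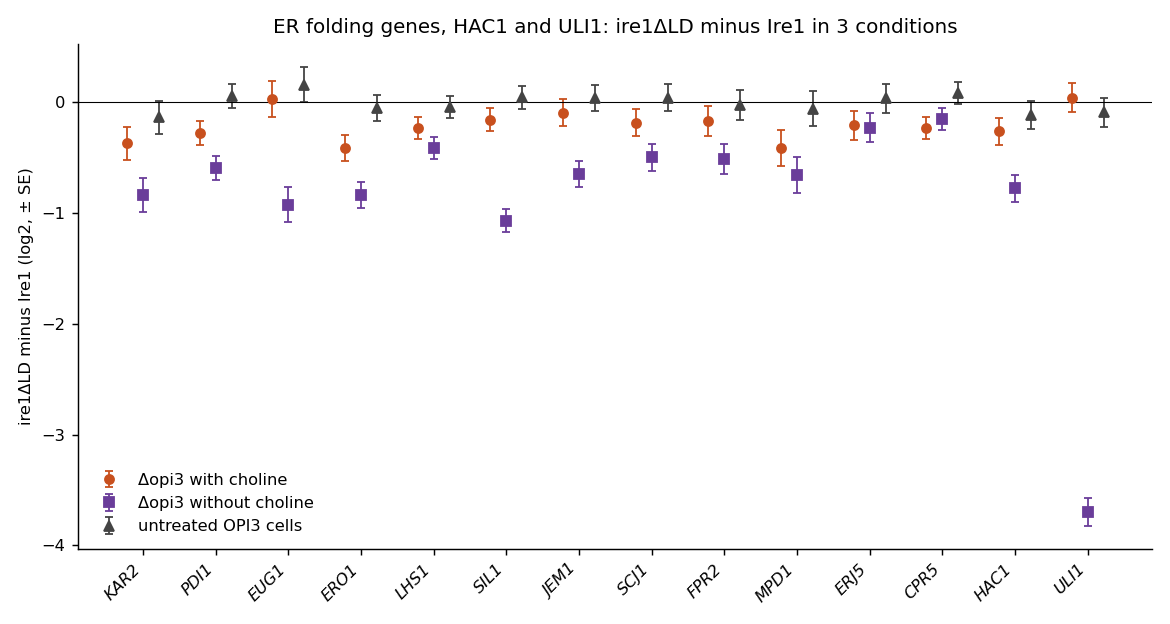
Difference (ΔLD cells minus IRE1 cells, log2, with its SE from the model) for 12 ER folding genes, HAC1 and ULI1 in Δopi3 cells with choline, Δopi3 cells without choline and untreated cells. With choline ULI1 lies at 0.04, against −3.70 without it, and the 12 folding genes lie between −0.42 and 0.02.

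No gene of lipid synthesis on the lists was called. Of 19 genes for phospholipid and inositol synthesis and 13 for fatty acid synthesis and activation, 0 were called (3.14% of all genes were). Of 24 genes for ergosterol synthesis, 0 were called as well. In that order 2, 1 and 0 had an unadjusted p under 0.05 (13.9% of all genes had). INO1, the inositol synthesis gene that responds to phospholipid precursors, had levels of −4.91, −4.57 and −5.81 in IRE1 cells and of −4.53, −5.43 and −5.32 in ΔLD cells. The groups overlapped, with a difference of 0.00 (SE 0.25, adjusted p 0.998). The choline route held CKI1 (0.10), PCT1 (−0.11), CPT1 (−0.22) and the choline transporter gene HNM1 (−0.09), of which none was called (adjusted p 0.347 or more).

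SRL4 and 2 genes of vitamin B6 synthesis were among the largest falls. SRL4 (YPL033C) had levels of −4.74, −4.47 and −4.58 in IRE1 cells and of −7.09, −7.67 and −7.22 in ΔLD cells, where it was above background on 1 array. The groups did not overlap, with a fitted difference of −2.73 (SE 0.23, adjusted p 5.31e-07). Its size rests in part on signals within the background. SNZ1 and SNO1 encode the subunits of an enzyme for vitamin B6 synthesis and lie head to head. SNZ1 had levels of 1.73, 2.13 and 1.93 in IRE1 cells and of −0.11, −0.19 and 0.04 in ΔLD cells, a difference of −2.02 (SE 0.19, adjusted p 3.33e-06). SNO1 had levels of −3.53, −3.05 and −3.27 against −5.11, −5.26 and −4.92, a difference of −1.81 (SE 0.24, adjusted p 7.85e-05). Both genes were lower on every ΔLD array than on any IRE1 array, by 4.05-fold and 3.51-fold.

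RTC2, FMP23 and PIR5 were also lower. RTC2, which encodes a vacuolar transporter for basic amino acids, had levels of −2.45, −2.10 and −2.17 in IRE1 cells and of −3.86, −4.23 and −4.29 in ΔLD cells, a difference of −1.89 (adjusted p 5.10e-06). FMP23, whose product was found in mitochondria, had levels of −3.81, −3.75 and −3.96 against −5.52, −5.81 and −5.73, a difference of −1.85 (adjusted p 5.31e-07). PIR5, a member of a family of cell wall proteins, had levels of −5.27, −4.60 and −4.96 against −6.77, −6.75 and −6.73, a difference of −1.81 (adjusted p 1.19e-05). In each of them the lowest IRE1 array was above the highest ΔLD array. So was the reading frame YOR329W-A (−1.40, adjusted p 5.31e-07). The other 5 of the 12 largest falls were dim. The array feature TC22026, which matched no named gene, was at least 1.69-fold lower (adjusted p 4.23e-06), PGU1 at least 1.08-fold and YBR182C-A at least 1.03-fold, with no ΔLD array above background. The calls of PGU1 and YBR182C-A were lost without the array that carried an OPI3 signal (adjusted p 0.0929 and 0.0986). Their fitted differences were −1.11 and −1.41 there, against −1.15 and −1.68 in the main fit. The calls were also lost with normexp (−0.42 and −0.54, adjusted p 0.184 and 0.0824), so these 2 bounds hold only for the signals used here. YHR214W and YAR066W, near-identical copies that the probes may not separate, were not well above background in either group, and with normexp YHR214W was not called (adjusted p 0.0694).

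**Figure D3:**
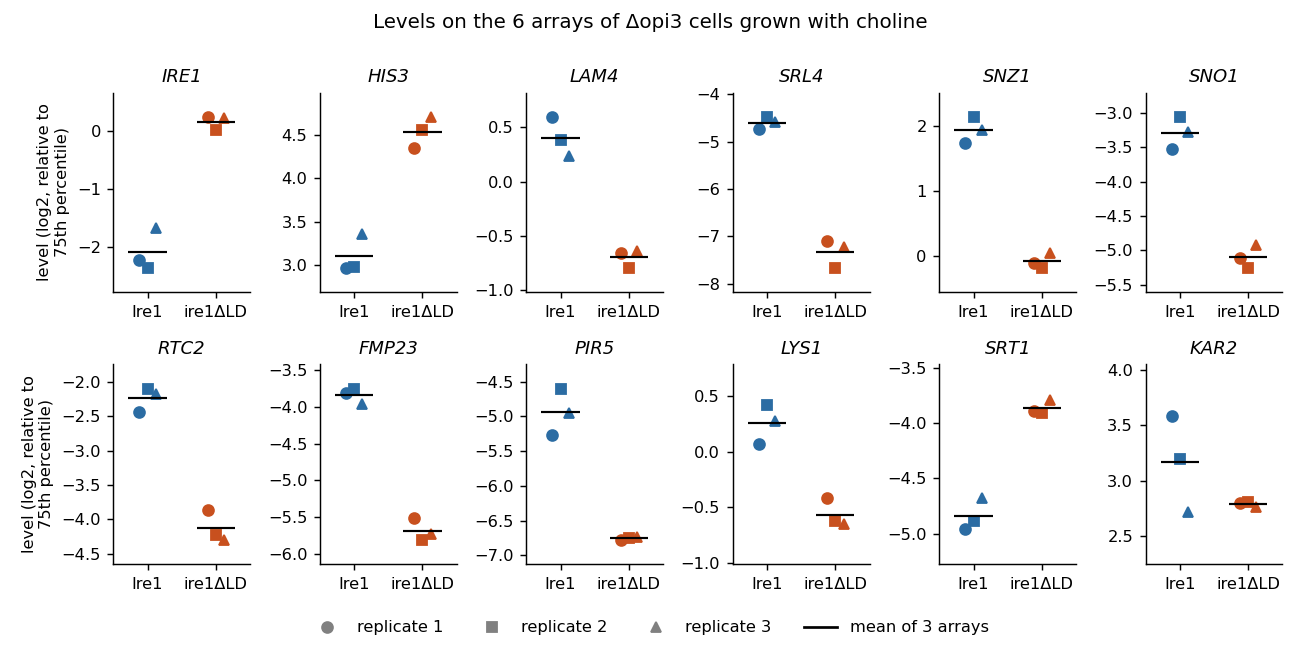
Levels (log2, relative to the 75th percentile) of 12 genes on the 3 arrays of IRE1 cells (blue) and the 3 arrays of ΔLD cells (orange), with the replicate given by the symbol and the mean by a line. In 11 of the genes the groups do not overlap, while in KAR2 the IRE1 array of replicate 3 (2.72) lies below the ΔLD arrays.

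The largest rises beyond IRE1, HIS3 and YOR203W were in dim genes. SRT1, which encodes a cis-prenyltransferase that makes dolichol, the lipid carrier of N-glycosylation, had levels of −4.95, −4.88 and −4.68 in IRE1 cells and of −3.89, −3.91 and −3.79 in ΔLD cells. The groups were apart by far more than their spread, with a difference of 0.97 (SE 0.10, adjusted p 6.12e-06). DSF1, a mannitol dehydrogenase gene, was higher by 0.94 (adjusted p 2.13e-05). Its near-identical copy MAN2 was not well above background in either group, and the probes may not separate the pair. FRE7, a metal reductase gene, was higher by 1.02 (adjusted p 0.0103), and the enolase-related copies ERR1 and ERR2 by 1.09 and 1.01 (adjusted p 0.0240 and 0.0397). These 3 calls were lost without the array that carried an OPI3 signal, where the differences were 0.93, 0.99 and 0.96 (adjusted p 0.0585, 0.109 and 0.130). With normexp ERR1 (0.48, adjusted p 0.245) and ERR2 (0.51, adjusted p 0.232) were not called either. LDS1, a gene of spore wall formation, was at least 1.47-fold higher with 0 IRE1 arrays above background (adjusted p 0.00926). Its call was also lost without the array with the OPI3 signal (adjusted p 0.0538). The fitted difference, which rests in part on signals within the background, was 0.86 there against 0.93 in the main fit. With normexp the LDS1 difference was 0.30 and not called (adjusted p 0.258), so the bound holds only for the signals used here. YGL258W-A and MF(ALPHA)1 were not well above background in either group. Neither was called with normexp (adjusted p 0.282 and 0.647), and MF(ALPHA)1 was not called without the array with the OPI3 signal (adjusted p 0.162) or with quantile normalization (adjusted p 0.0989).

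A few amino acid genes fell. Of 20 amino acid synthesis genes under the activator Gcn4, 4 were called lower (1.5% of all genes were) and 0 higher. The median was −0.19, with 18 of 20 differences below 0, as were 2933 of all 6209. An unadjusted p under 0.05 was reached by 11 of the 20 (13.9% of all genes). LYS1, the last step of lysine synthesis, had levels of 0.07, 0.43 and 0.28 in IRE1 cells and of −0.42, −0.63 and −0.65 in ΔLD cells, a difference of −0.82 (SE 0.10, adjusted p 1.97e-05) with no overlap. ARG4 (−0.51, adjusted p 0.00310) and ARG1 (−0.48, adjusted p 0.0358), of arginine synthesis, and LYS9 (−0.40, adjusted p 0.0293), of lysine synthesis, were also lower. Of 7 histidine synthesis genes HIS3 was called higher (1.64% of all genes were). HIS7 (−0.29, adjusted p 0.0363), HIS4 (−0.28, adjusted p 0.0148) and HIS2 (−0.27, adjusted p 0.0338) were called lower (1.5% of all genes were). With the replicate block 7 of the 20 genes were called lower. Without the array with the OPI3 signal LYS1 and ARG4 were still called and ARG1 (−0.53), LYS9 (−0.44), HIS7 (−0.28), HIS4 (−0.27) and HIS2 (−0.29) were not (adjusted p 0.0555, 0.0572, 0.108, 0.0604 and 0.0780). With scaling to the control probes of the array 0 of the 20 were called, and the differences were −0.72 for LYS1, −0.41 for ARG4, −0.37 for ARG1 and −0.30 for LYS9.

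Vitamin genes moved both ways. Of 12 genes for vitamin B6 and thiamine, SNZ1 and SNO1 were lower (1.5% of all genes were). Called higher (1.64% of all genes were) were SNZ2 (0.47, adjusted p 0.00130), SNZ3 (0.47, adjusted p 0.00558) and THI5 (0.51, adjusted p 0.00732). SNZ2 had levels of −1.55, −1.62 and −1.67 in IRE1 cells and of −1.08, −1.18 and −1.16 in ΔLD cells, which do not overlap. SNZ2 and SNZ3 are near-identical copies, as are THI5 and other THI genes, and the probes may not separate them. SNO2 (0.23) and SNO3 (0.24) were also called higher with the replicate block (adjusted p 0.0119 and 0.0194). With scaling to the control probes the 3 differences of SNZ2, SNZ3 and THI5 were 0.58, 0.57 and 0.61, and none was called. Without replicate 2 SNZ2 (0.49) and THI5 (0.51) were not called (adjusted p 0.0551 and 0.215).

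Genes of mating moved both ways as well. Of 12 pheromone response genes, FUS1, needed for the fusion of mating cells, had levels of −2.70, −2.56 and −2.79 in IRE1 cells and of −3.45, −3.26 and −3.05 in ΔLD cells, a difference of −0.57 (adjusted p 0.0122). PRM2, which acts in the fusion of nuclei, was also lower (−0.76, adjusted p 0.00197), and FUS2, a partner in cell fusion, was higher by 0.46 (adjusted p 0.00493). Among all genes 1.5% were called lower and 1.64% higher. STE3 was higher by 0.51 (adjusted p 0.0472). Of 14 iron uptake genes FIT2, a cell wall protein that retains iron carriers, was higher by 0.52 (adjusted p 0.00290), and FIT1 was called as well with the replicate block (0.27, adjusted p 0.0351). Of 17 cell wall genes tested PIR1 was lower (−0.37, adjusted p 0.0142), but not with quantile normalization (−0.30, adjusted p 0.0745) nor in 6 of the 9 fits that left out an array or a replicate number. STE3 was called in none of those 9 fits, and with normexp it was not called (0.29, adjusted p 0.264). With scaling to the control probes FUS1 (−0.47), PRM2 (−0.65), FUS2 (0.57), STE3 (0.61), FIT2 (0.62) and PIR1 (−0.27) were not called.

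No gene of the remaining lists was called. Of 14 cytosolic heat shock genes, 14 general stress genes, 14 trehalose and glycogen genes and 14 sulfur assimilation genes, 0 were called in each. The same held for 28 genes of the respiratory chain and ATP synthase, 9 hexose transport genes and 12 genes of the phosphate regulon. It also held for 6 of the zinc regulon and 20 of ribosome biogenesis. As 3.14% of all genes were called, 0 is near that share in lists of this size. In the order given 0, 1, 0, 1, 3, 1, 4, 2 and 0 had an unadjusted p under 0.05 (13.9% of all genes had). The median was −0.16 for the phosphate regulon and −0.27 for the zinc regulon. Of 131 ribosomal protein genes 0 were called, 1 had an unadjusted p under 0.05, and the median was −0.05 (0.01 with quantile normalization and 0.05 with scaling to the control probes). With the replicate block MET16 of sulfur assimilation, VTC1 and PHO84 of the phosphate regulon, HXT1 of hexose transport and the ribosomal protein gene RPL22B were called lower (adjusted p 0.0425, 0.0364, 0.0218, 0.0260 and 0.0247). DDR48, a stress gene on no list that was named after its values were seen, was called lower (−0.82, adjusted p 0.00570). The phosphate transporter gene PHO84 had levels of −1.69, −0.53 and −0.42 in IRE1 cells and of −2.89, −2.68 and −2.80 in ΔLD cells, and is named after its values were seen. The groups did not overlap, but its difference of −1.91 was not called (SE 0.74, adjusted p 0.220), while it was called with scaling to the control probes (−1.81, adjusted p 0.00717).

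The difference between the forms was set beside that in untreated cells, which asks whether Δopi3 with choline changed it. In untreated cells 49 genes were called (0.789%), 3 higher (0.0483%) and 46 lower (0.741%). Of these, 37 were called in the same direction with choline, which is 75.5% of the 49 and 19.0% of the 195, and 0 in the opposite one. The arrays of these comparisons are different but share slides. Of the 102 genes called higher with choline 88 had a difference above 0 in untreated cells, and of the 93 called lower 92 had one below 0, where 45.1% of all genes were above 0. SNZ1 (−1.67), SNO1 (−1.54), SRL4 (−2.49), RTC2 (−1.54), FMP23 (−1.50), PIR5 (−1.42), LYS1 (−0.73), IRE1 (2.10) and HIS3 (1.15) were also called in untreated cells. SRT1 was not called there (0.36, adjusted p 0.159). The difference between the comparisons was called for 0 of 6209 genes by limma, with 198 (3.19%) at an unadjusted p under 0.05, and for 6 genes with the replicate block and 3 without untreated ΔLD replicate 3. Its median SE was 0.14, so a change of small size was not detectable. Larger changes were missed by limma's test as well, among them DSF1 (0.75, SE 0.16, adjusted p 0.165) and FIT2 (0.60, SE 0.13, adjusted p 0.165). The 0 genes called therefore do not limit the change to small sizes.

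**Figure D4:**
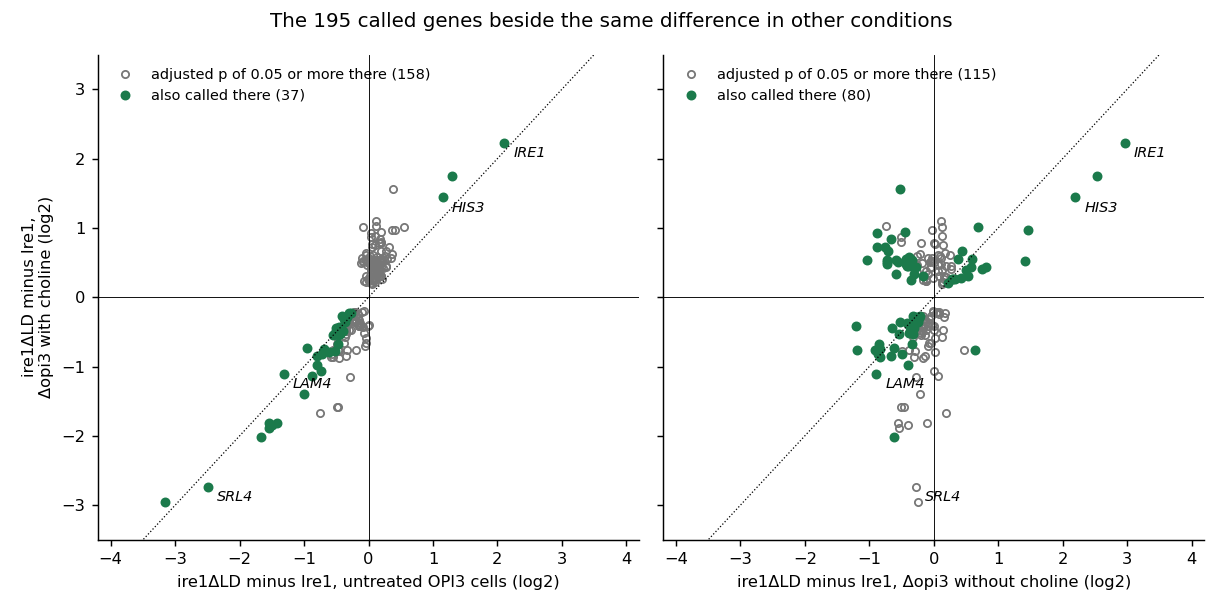
The 195 called genes: difference (ΔLD cells minus IRE1 cells, log2) in Δopi3 cells with choline on the y axis, against the same difference in untreated cells (left) and in Δopi3 cells without choline (right), with genes also called there filled and the line of equality dotted. In the left panel 37 genes were called in both, each with the same sign in the 2 conditions, some higher and some lower. In the right panel 80 were, 51 in the same and 29 in the opposite direction.

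Without choline the forms differed at more genes. On the arrays labelled Δopi3 without choline 1002 genes were called (16.1%), 6.91% higher and 9.23% lower. Of these, 51 were called in the same direction with choline and 29 in the opposite one. Of the 102 genes called higher with choline 45 had a difference above 0 without it, and of the 93 called lower 77 had one below 0, where 50.7% of all genes were above 0. The difference between the comparisons was called for 434 genes (6.99%), of which 297 (68.4%, or 4.78% of all genes) were higher with choline and 137 (2.21% of all genes) lower. With scaling to the control probes 56 were called, 50% of them higher. OPI3 was above background on 4 of the 6 arrays without choline, at 0.752% to 31.0% of the untreated mean. Leaving out all 5 arrays labelled Δopi3 that carried an OPI3 signal, which leaves 1 array in each group without choline whose spread is taken from the other groups, 205 genes were called, 171 of them among the 434. With the replicate block 763 were called, without replicate 2 only 68, and without the IRE1 array of replicate 3 that had no choline 1191.

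ULI1 and some genes of the ER lists stood among them. The ULI1 difference was −3.70 without choline and 0.04 with it, and these differed by 3.73 (adjusted p 1.03e-10; 3.65 and 3.46e-06 without the 5 arrays). Of the 12 ER folding genes 10 were called lower in ΔLD cells without choline (median −0.62), where 9.23% of all genes were. With choline 0 were called lower (1.5% of all genes were), but 11 of the 12 were still below 0 (median −0.22). There 6 had an unadjusted p under 0.05 (13.9% of all genes had). The test of the difference itself was passed by 2 of the 12, EUG1 (0.95, adjusted p 0.0128), a disulfide isomerase gene, and SIL1 (0.91, adjusted p 0.000494), which encodes the exchange factor of Kar2. It was passed by 1 of 12 degradation genes, DER1 (0.81, adjusted p 0.00698), and by 1 of 12 translocation genes, SEC72 (0.44, adjusted p 0.0132). Of 14 genes for transport to the Golgi 2 passed, the vesicle coat genes SEC24 (0.58, adjusted p 0.000644) and SEC16 (0.44, adjusted p 0.0106), and of 14 for N-glycosylation 0 passed. These 6 genes are named because they passed, and 4.78% of all genes did so in that direction. All but SEC16 and SEC72 were still called without the 5 arrays with an OPI3 signal (0.45 and 0.48, adjusted p 0.0594 and 0.133). The difference between the comparisons was 0.51 for HAC1 (adjusted p 0.0826, called with the replicate block at 0.0392) and 0.47 for KAR2 (adjusted p 0.220), neither of them called.

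SRL4 and SNZ1 stood in the other direction. SRL4 differed by −2.73 with choline and −0.28 without it, a difference between the comparisons of −2.45 (adjusted p 9.59e-05). The sizes for SRL4 with choline rest in part on signals within the background. SNZ1 differed by −2.02 and −0.62, a difference of −1.40 (adjusted p 0.00334) that was not called without the 5 arrays (−1.43, adjusted p 0.0993). Respiratory chain genes were called higher in ΔLD cells without choline for 22 of 28 (6.91% of all genes were), with a median of 0.37. With choline 0 were called (median 0.07). The test of the difference was passed by 5, QCR6, COX5A, COX7, COX12 and ATP1 (−0.46 to −0.37). In that direction 2.21% of all genes passed.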

How the data were processed

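Per the file headers, the authors' software made the intensity values: Agilent's Feature Extraction (version 10.7.1.1) corrected each spot for background and for spatial trends, and did not scale arrays to each other. Groups came from titles and genotype labels. Outlier spots (1.11% to 1.67% of an array) were left out, log2 signals were centred on the array's 75th percentile, and spots of a probe, then probes of a systematic name, were averaged (61657 spots, 6616 probes, 6576 names, 39 with several probes). Genes entered the fit where, in some group, every array had over 50% of the spots of a probe well above background (6209 genes, of which 5752 matched the RefSeq list of assembly R64 and 457 kept the array's name). The number of arrays limits the precision.

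A model with 8 group means over 24 arrays was fitted with limma 3.58.1 (statmod 1.5.0, R 4.3.3, files read with data.table, version 1.17.8), with 16 residual degrees of freedom. With 3 arrays a side, exact permutation p-values go no lower than 0.1, and none was used. Replicate number is also the slide, per the file headers. Deviations from the group means correlated at 0.36, 0.54 and 0.54 for same-numbered arrays, which therefore deviated together. Those of different numbers (at most −0.10) add no support, because deviations sum to 0 within a group. The main model did not use this pairing, and the replicate block does.

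Where a group had no array above background, "at least" folds set it at its own signal or the lowest well above background, whichever was higher. Genes named were IRE1, OPI3, HIS3, HAC1, KAR2, PDI1, ERO1, INO1 and ULI1, the 12 largest rises and 12 falls among called genes whose groups did not overlap, up to 4 called genes of each of 28 lists, and 4 each way for the differences between comparisons. Other names were chosen after their values were seen. Members and lists were chosen with earlier results of these data known. The 4 names of the two-micron plasmid list matched no name on the array, and HSP150 of the cell wall list was not on it.

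Alternatives were quantile normalization, scaling to 7 E1A control probes, normexp background correction (on the median signal, the mean signal being absent from these files), other filters and spot summaries, the replicate block, the compared groups alone, leaving out arrays, and the authors' deposited table of log2 ratios, whose reference group and normalization are not stated. The fit without the 5 arrays with an OPI3 signal, and 5 further lists, were added after seeing the data. A search for promoter motifs was not run, because promoter sequences were not used here.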

Additional observations from a re-analysis of the deposited data

Results flagged for a closer look

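The genes below were singled out because the difference between the Ire1 forms was not the same with and without choline, by limma's test of the difference between the 2 comparisons (adjusted p under 0.05). Values are the difference with choline minus that without, on the log2 scale. Of the genes measured above background on every array of these 4 groups, the values were positive for ULI1 (3.73), DSF1 (1.39), THI5 (1.24), SRT1 (1.00), FUS2 (0.72) and SNZ2 (0.40). They were negative for MTC7 (−1.97), PIR5 (−1.71), FMP23 (−1.45), SNZ1 (−1.40), RTC2 (−1.35), SNO1 (−1.26), YOR329W-A (−1.18), FIT2 (−0.90), FUS1 (−0.70) and HIS7 (−0.44).

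Other genes were above background on only some arrays, so their fitted values rest in part on signals within the background and give neither a size nor an order. SRL4 (−2.45) and YNR042W (2.25) were above it on 1 and 2 of the 3 ΔLD arrays with choline and on all arrays of the other groups. TC22026 (−2.72) was above it on no ΔLD array with choline, and LDS1 (1.81) on no IRE1 array with choline. MAN2 (2.09), YGL258W-A (1.78), YNL120C (−2.24) and YJL152W (2.38) were above it on none of the 6 arrays with choline, and YJL152W also on no ΔLD array without it. YBR182C-A (−1.87) was above it only on 2 IRE1 arrays with choline.

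ULI1, YJL152W, YNR042W, YNL120C and MTC7 were not called between the forms with choline, where they differed by 0.04, 0.10, −0.10, −0.35 and −0.16. ΔLD cells had more THI5 with choline (0.51) and less without it (−0.73), while FIT2 was higher in both, by 0.52 and 1.41. OPI3 was above background on 4 of the 6 arrays without choline and on 1 of the 6 with it, and its part in these values was not tested.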

How the results depend on the processing

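The 195 called genes became 32 with scaling to the E1A control probes, which placed the median of all genes at 0.11, 344 with the replicate block and 127 with the compared groups alone. The count stayed within 1.5 times with quantile normalization (186), normexp (138), no filter (192), a strict filter (166), outlier spots kept (186) and the median of spots (191). Leave-outs of an array or a replicate number gave 30 to 134. Against untreated cells 0 genes became 2 with the control probes, 6 with the block, 4 with the block and the compared groups alone, and 0 to 3 in leave-outs. Against cells without choline 434 became 56 with the control probes, 763 with the block, 208 with the compared groups alone, 205 without the arrays with an OPI3 signal and 68 to 1191 in leave-outs. Smaller arms have fewer arrays, and other causes were not tested.

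Of the named genes, INO1 turned to −0.019 with quantile normalization and −0.012 with normexp, and ULI1 to −0.021 with normexp. In leave-outs INO1 lay between −0.35 and 0.44, ULI1 between −0.030 and 0.12 and OPI3 between −5.04 and 0.19, and none of them was called. YBR182C-A was 0.17 in the authors' deposited table against −1.68 here, and the cause was not tested. IRE1, HIS3, LAM4, SRL4, SNZ1, SNO1, RTC2, FMP23, PIR5, LYS1 and SRT1 stayed called in all 9 leave-outs, at adjusted p up to 0.0383. HIS7, HIS2 and LYS9 were called in 0 of the 9. Among the genes named by rule, the block changed the calls of ERO1 and of the HAC1 difference, given in the report, and no other.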

Other observations

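Genes of cell division, chosen after their values were seen so that their counts are a description, differed between the forms with choline. Of 15 genes for cell separation and the daughter cell, 7 were called lower in ΔLD cells (1.5% of all genes were) and 0 higher, with all 15 differences below 0 (1 above 0 with scaling to the control probes) and a median of −0.41. Among them the chitinase gene CTS1 had levels of 2.42, 2.36 and 2.45 in IRE1 cells and of 1.57, 1.85 and 1.83 in ΔLD cells (−0.66, adjusted p 0.00130), and DSE2 (−0.70), SCW11 (−0.59), EGT2 (−0.52), PCL9 (−0.43), PRY3 (−0.42) and AMN1 (−0.41) were also called. Of the 8 core histone genes, which include near-identical pairs, 5 were called lower, with all 8 below 0 and a median of −0.35. Of 16 genes expressed in mitosis, 7 were called higher (1.64% of all genes were) and 0 lower, with all 16 above 0 and a median of 0.32. KIN3, a mitotic kinase gene, had levels of −1.69, −1.77 and −1.78 against −1.01, −1.28 and −1.30 (0.55, adjusted p 0.00137), and CDC20, an activator of the anaphase-promoting complex, was higher by 0.43 (adjusted p 0.00480). The medians of these 3 lists were −0.09, −0.17 and 0.15 in untreated cells and −0.18, −0.06 and 0.38 in Δopi3 cells without choline. The difference from cells without choline was called for 1 gene of the first list, CTS1, and for 0 of the others. Without the array with an OPI3 signal the counts were 3, 0 and 4, with medians of −0.36, −0.34 and 0.32, and with scaling to the control probes 0 of each were called. With normexp the counts were 7, 5 and 6. Without replicate 2 also 0 of each were called, with medians of −0.42, −0.39 and 0.38.

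Dim genes of sporulation and of maltose use were higher. These lists were also chosen after their values were seen, so their counts are a description. Of 46 genes of meiosis and sporulation, 41 were tested and 19 called higher (1.64% of all genes were) and 0 lower, with a median difference of 0.33 and a median level of −5.58 in IRE1 cells. Of all 102 called genes that were higher, 66 lie under the level of −2.82 below which 25% of all genes lie. PES4 (0.88), PFS1 (0.78), REC8 (0.78), SPS22 (0.76), SPR3 (0.76) and SGA1 (0.72) were among them. Of 11 genes for maltose and isomaltose use 6 were called higher, with all 11 above 0 and a median of 0.29 at a median level of −4.41. Several of these are near-identical copies that the probes may not separate. Without the array with an OPI3 signal 13 and 3 genes of these 2 lists were called, and with scaling to the control probes 2 and 0. With normexp 12 and 3 were called, with medians of 0.27 and 0.27. Without replicate 2 the counts were 2 and 0, with medians of 0.42 and 0.28.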
